A study of Mus musculus with 10 samples.

Results

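The 480 wide binding regions described here are stretches of at least 2 kb of the mouse genome (build mm9) that carried a Sin3a peak and a FLAG-Nanog peak in every line in which each protein was mapped. They were chosen by merging all peaks of the 4 deposited ChIP-seq peak lists that share at least 1 base, and by keeping the merged regions that hold a peak of all 4 lists and measure 2000 bp or more. Of 45707 merged regions, 11761 held a peak of all 4 lists, and 480 of these were wide (4.08%). The other 11281 regions of all 4 lists, called narrow below, serve as the comparison. Both the presence in 4 lists and the width come from the peak calls themselves, so widths, peak numbers and peak heights are given as descriptions with no test.

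Pre-iPSCs are partly reprogrammed cells. Those used here came from female neural stem cells of mouse strain 129/MF1, with an Oct4-GFP-IRES-puro reporter, kept on gelatin in medium with serum and LIF. All lines carried PiggyBac transposon vectors with the constitutive CAG promoter, stably integrated and selected with hygromycin, blasticidin or both. The labels do not say whether a line is 1 clone. The Sin3a line carried Sin3a and an empty vector, the Nanog line carried FLAG-tagged Nanog and an empty vector, and the Nanog + Sin3a line, called the combined line below, carried both genes. Sin3a was precipitated from the Sin3a line and the combined line, and FLAG from the Nanog line and the combined line. FLAG reads only the added Nanog, whereas a Sin3a antibody can also bind the Sin3a that the cells make themselves. Each of these 4 groups had 2 replicates but only 1 peak list, so no value below carries a replicate error and no difference between lines has a replicate check. Intervals are 95% intervals and cover counting error only.

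Nanog is a homeodomain transcription factor of the pluripotency network that binds short DNA motifs in enhancers and promoters. Sin3a has no DNA-binding domain that reads a motif: it is the scaffold of a corepressor complex that holds histone deacetylases and is brought to chromatin by other factors. Sin3a complexes are known mainly from promoters of active and poised genes. Wide stretches of factor binding commonly form where several bound elements lie side by side or where a bound stretch of open chromatin is long. No gene annotation or genome sequence of build mm9 was used here, so the regions are named by position and no gene or sequence is assigned to them.

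Most wide regions held several neighbouring peaks of at least 1 list, and in 280 of the 480 a single peak of at least 1 list was itself 2 kb or wider. Their median width was 2304.5 bp, with the middle of the distribution from 2114 to 2656 bp and a highest value of 10175 bp. Of the 480, 325 (67.7%) were narrower than 2500 bp, 100 lay between 2500 and 3000 bp, 40 between 3000 and 4000 bp, and 15 reached 4000 bp. A region held a median of 7 peaks over the 4 lists. Only 41 regions (8.54%) held exactly 1 peak of each list, against 75.1% of the narrow regions. This share rose to 17.6% and 42.5% when peaks with a −log10 q under 5 or under 10 were left out. In 200 regions (41.7%) no single peak of any list reached 2 kb, and the width came from joined peaks; in 14 regions a single peak of 2 kb or more was present in each of the 4 lists.

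Where the numbers of peaks differed, FLAG-Nanog signal was more often the one split into more peaks, in wide and in narrow regions. FLAG peaks outnumbered Sin3a peaks in 252 wide regions (52.5%), Sin3a peaks outnumbered FLAG peaks in 119 (24.8%), and the numbers were equal in 109 (22.7%). Among narrow regions FLAG peaks were the more numerous in 15.5% and Sin3a peaks in 6.24%, and the numbers were equal in 78.2%. The FLAG lists held more peaks in all, as given below, and the part of that was not tested. One peak covered the Sin3a signal of a wide region in 55.8% of regions (Sin3a line) and 50% (combined line). The corresponding share was 37.9% for FLAG in each of its lines. Sin3a peaks of 2 kb or more were present in 123 and 131 wide regions in the Sin3a and the combined line, and FLAG peaks of that width in 108 and 83 in the Nanog and the combined line. FLAG also set more of the outer edges. A FLAG peak set 539 of the 960 region ends (56.1%) and a Sin3a peak 418 (43.5%), whereas in narrow regions the shares were 49.7% and 49.9%.

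**Figure D1:**
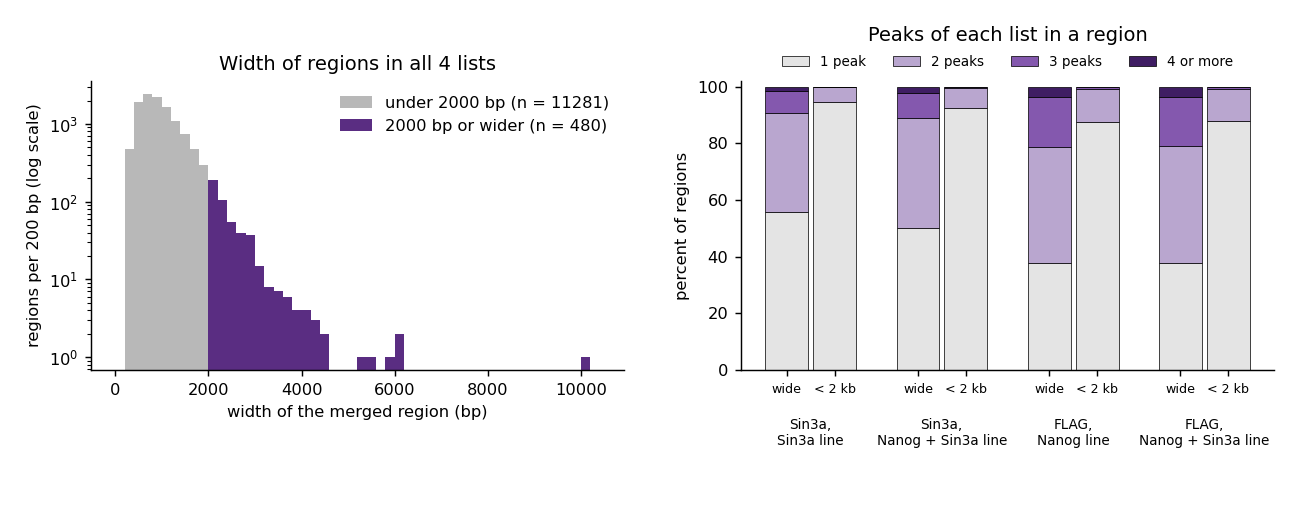
Left, the number of regions of all 4 lists (log axis) by width in bp, narrow in grey and wide in purple; right, the percent of wide and narrow regions with 1, 2, 3 or more peaks of each list. Widths tail off to 10175 bp, and FLAG is in 1 peak in 37.9% of wide regions.

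Over all 480 regions, 47.8% of the 1198476 bases lay under a peak of all 4 lists, and 72.3% lay under both a Sin3a and a FLAG peak. Bases under Sin3a alone made up 14.0% and bases under FLAG alone 13.7%. In the narrow regions the first 2 of these shares were 46.7% and 70.6%, so the wide regions shared about as much of their length between the proteins as the narrow ones did. The shared bases were broken into 2 or more stretches in 321 wide regions (66.9%) and formed 1 stretch in 158. In 1 region, chr19:57008456-57010636, no base was common to all 4 lists. The longest shared stretch had a median length of 786.5 bp, against 356 bp in narrow regions.

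The longest region, chr19:5836291-5846465, was 10175 bp wide and held 15 peaks. Almost all of it lay under FLAG. The broadest FLAG peaks measured 5962 bp (Nanog line) and 7778 bp (combined line), and 3336 bases lay under FLAG with no Sin3a. Sin3a formed 3 separate peaks there (Sin3a line) and 7 (combined line). The fold enrichment of the strongest peak, which is the scaled number of fragments over the summit divided by the expected background with 1 added to each, was 5.54 and 6.68 for Sin3a in the Sin3a and the combined line. For FLAG it was 12.8 (Nanog line) and 13.6 (combined line). The summits of the 4 strongest peaks lay together near the right end, between 9029 and 9350 bp from the left edge.

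This region is one of a group of 4 wide regions on chromosome 19 between positions 5793849 and 5850572, which together covered 22503 bp of 56.7 kb. Its neighbour chr19:5797850-5804045 was 6196 bp wide, the second longest of all, and held 16 peaks. FLAG enrichment there was 19.9 (Nanog line) and 15.7 (combined line). Sin3a enrichment was 7.37 (Sin3a line) and 6.29 (combined line). The remaining members of the group, chr19:5793849-5795976 and chr19:5846569-5850572, measured 2128 and 4004 bp. In all 4 regions of the group both FLAG values were above both Sin3a values. FLAG folds were also the higher over all wide regions, with medians of 9.15 (Nanog line) and 7.91 (combined line). The Sin3a median was 6.93 in each of its lines. The share of other regions with this order is not given here.

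The next longest region divided the proteins differently. In chr15:76033586-76039686 (6101 bp) Sin3a formed the broad peaks, of 5566 bp (Sin3a line) and 5596 bp (combined line), while FLAG was split into 3 peaks (Nanog line) and 5 (combined line). Folds there were 9.77 and 7.31 for Sin3a and 11.7 and 8.93 for FLAG, each given first for the line with 1 added gene. The strongest FLAG summit stood 1186 bp from the left edge (Nanog line) and 4394 bp (combined line). The region held a pair of FLAG peaks of nearly equal height, with folds of 11.7 and 11.8 in the Nanog line. The division in chr11:86391282-86397094 (5813 bp), which had the most peaks of any wide region (17), was like that in the longest region. This region held a broad FLAG peak of 3059 bp (Nanog line) and 3851 bp (combined line). Its FLAG folds were 15.4 and 15.8, with summits 19 bp apart, while Sin3a was low and broken into 4 and 8 peaks with strongest folds of 4.33 and 5.14.

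**Figure D2:**
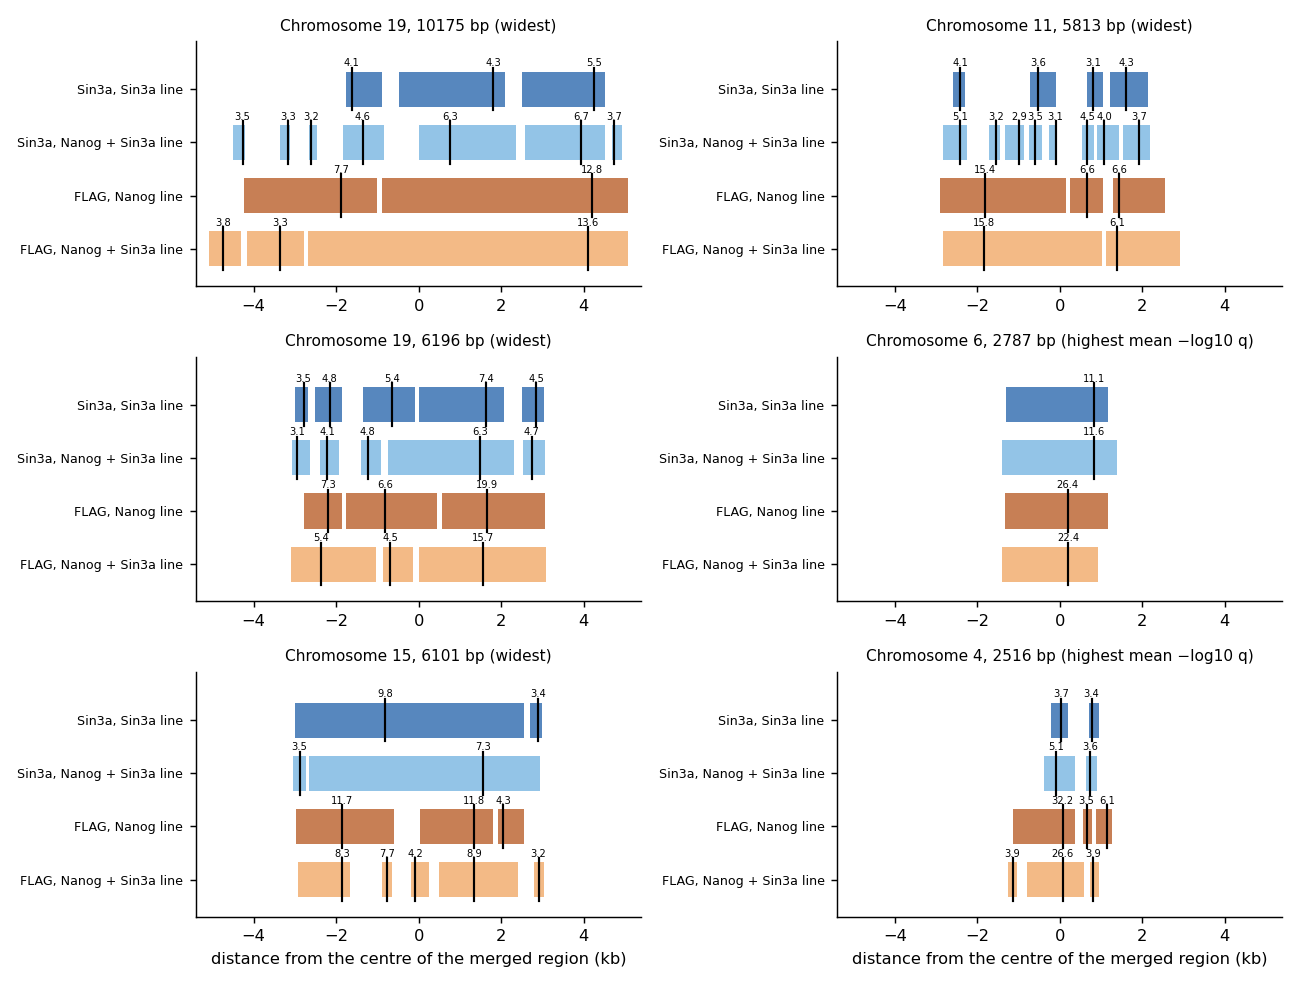
Peaks of the 4 lists across the 4 longest wide regions and the 2 with the highest mean −log10 q, by distance in kb from the centre of the region; boxes are peaks and ticks are summits with their fold enrichment. In the long regions a broad peak in 1 list lies over several shorter peaks in another, whereas the region of 2787 bp on chromosome 6 shows 1 broad peak in each list.

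Wide regions were enriched above the typical shared region in all 4 lists, by the strongest peak of each list. Wide regions held a median of 7 peaks and narrow ones 4, so this peak was often picked from more peaks in wide regions. The part of that in the difference was not tested. The median fold of the strongest Sin3a peak was 6.93 in both lines, against 5.4 in narrow regions for both. The median fold of FLAG was 9.15 (Nanog line) and 7.91 (combined line), against 6.69 and 5.76. Over the summit these values rested on a median of 70 and 57 Sin3a fragments and 64 and 67 FLAG fragments, recovered from the deposited values. Ranked among all peaks of its own list, the strongest peak of a wide region stood at a median percentile of 79.8 and 82.1 for Sin3a and of 89.3 and 85.5 for FLAG, the line with 1 added gene first. Narrow regions stood at 61.6 and 63.4 for Sin3a and at 74.9 and 67.2 for FLAG. A fold in the top 20% of all 4 lists was found in 135 wide regions (28.1%) and in 8.68% of narrow ones.

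High enrichment and width were related but not the same. Among the 11761 regions of all 4 lists, ranked by mean −log10 q, 10.5% of the strongest 20% were wide (246 of 2352). The share fell to 5.4%, 3.1%, 1.28% and 0.17% over the following blocks of the same size. None of the 20 top-ranked regions was wide, and 12 of the first 100 were. Within the wide regions, fold hardly followed width, with Spearman coefficients over 480 regions of 0.03 and 0.02 for Sin3a and 0.11 and 0.15 for FLAG. These coefficients describe regions that share their libraries, and the spread of widths above 2 kb was small.

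**Figure D3:**
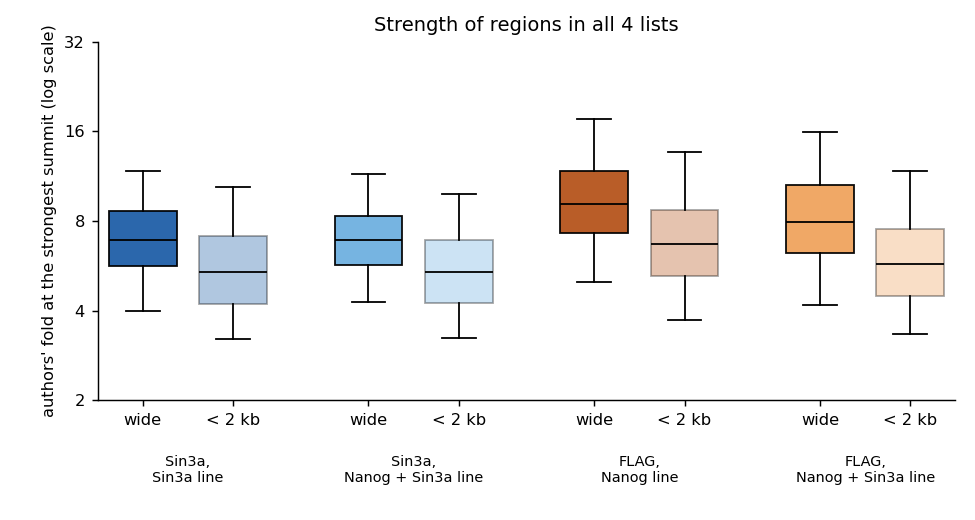
Fold enrichment of the strongest peak in wide and narrow regions for each list, on a log axis, with boxes from the lower to the upper quartile, a line at the median and whiskers from the 5th to the 95th percentile. The wide regions lie above the narrow ones in every list, with FLAG in the Nanog line highest at a median of 9.15.

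The wide region with the highest mean −log10 q, chr6:124778066-124780852, was 2787 bp wide and was ranked 22nd of all 11761. It held exactly 1 peak in each list, and each was over 2300 bp wide. Sin3a folds were 11.1 (Sin3a line) and 11.6 (combined line), on 110 and 96 fragments (90.4 to 133 and 77.8 to 117). FLAG folds were 26.4 (Nanog line) and 22.4 (combined line), on 178 and 175 fragments. The Sin3a summits stood 648 and 621 bp from the FLAG summits, so the proteins shared the region but not its highest point.

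Some of the other strongly enriched regions were led by FLAG. These regions were picked by mean −log10 q over the 4 lists, in which FLAG weighed more. The median −log10 q over wide regions was 33.2 and 26.1 for FLAG and 22.8 and 21.1 for Sin3a, the line with 1 added gene first. A lead of FLAG among the regions picked thus follows in part from the choice. At chr4:135701525-135704040 FLAG reached 32.2 in the Nanog line, the highest FLAG fold of any wide region, and 26.6 in the combined line. Sin3a at that region was 3.65 and 5.14, below its wide-region median in both lines. At chr11:11781357-11783445 FLAG was 28.4 and 25 and Sin3a 4.63 and 3.61. At chr4:131824812-131826823 FLAG was 26.6 and 23.8 and Sin3a 6.57 and 8.04. Both proteins were high at chr2:152560767-152566140, which was 5374 bp wide with 4022 bases under all 4 lists. Its FLAG folds were 27.8 and 20.1 and its Sin3a folds 8.89 and 9.86. Both were also high at chr11:102962249-102964597, where Sin3a was 12.8 and 11.3, FLAG was 19.6 and 19.8, and all summits compared lay 12 to 20 bp apart.

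The heights of the proteins followed each other only weakly across wide regions. The folds of the Sin3a lists were ordered alike in both lines (Spearman 0.72 over 480 regions), as were those of the FLAG lists (0.86). Between Sin3a and FLAG the coefficient was 0.14 for the lines with 1 added gene and 0.08 in the combined line, where the same cells gave both lists. In narrow regions it was 0.29 and 0.25. These are descriptions over regions that share their libraries. Wide regions were picked by width, and in narrow regions fold rose with width in every list (Spearman 0.3 to 0.37). Some folds also compare different sites. The strongest Sin3a and FLAG summits were over 1 kb apart in 14.4% of wide regions (lines with 1 added gene) and 17.5% (combined line). The part of the choice by width and of these distances in the lower coefficients was not tested. A total of 96 wide regions (20.0%) were in the top 20% of both FLAG lists and of neither Sin3a list, and 27 (5.62%) showed the reverse. The same classes held 13.8% and 7.78% of narrow regions, so FLAG-led regions were the more frequent there too. Ranks were taken within each list. The FLAG lists held 38485 (Nanog line) and 36286 peaks (combined line), against 17168 (Sin3a line) and 18231 (combined line) for Sin3a. The part of list size in these shares was not tested.

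Examples of the contrast lay on several chromosomes. Among the regions in which FLAG ranked furthest above Sin3a, chr19:25260606-25263417 had Sin3a folds of 2.89 and 3.87 and FLAG folds of 13.9 and 10.6. Another, chr9:69871420-69873904, had Sin3a folds of 2.84 and 3.02 and FLAG folds of 8.91 and 6.89. Among those in which Sin3a ranked furthest above FLAG, chr19:32462188-32464401 had Sin3a folds of 7.69 and 7.82 and FLAG folds of 4.45 and 4.11. At chr2:32731704-32733840 the order was the same, with Sin3a folds of 4.64 and 5.91 and FLAG folds of 3.64 and 2.75. These regions were picked by that rank difference, so the gap between their Sin3a and FLAG folds follows largely from the choice.

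Sin3a and FLAG-Nanog had their highest points at different places within many wide regions. The strongest FLAG summits of the Nanog and the combined line lay a median of 45 bp apart (interval 39 to 56), and those of Sin3a in its lines a median of 94 bp apart (72 to 108). Between Sin3a and FLAG the median distance was 183 bp (154 to 231) for the lines with 1 added gene and 287 bp (225 to 329) within the combined line. Narrow regions gave 38 and 52 bp within a protein and 83 and 93 bp between the proteins. A wider region leaves more room for distance, so the difference between wide and narrow regions partly follows from the rule. The order of the distances was the same in wide and in narrow regions. The part of the rule in that order was not tested. From the strongest summit of the first list to the nearest summit of any height in the second, the medians were 40, 75, 132.5 and 170 bp in the same order.

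**Figure D4:**
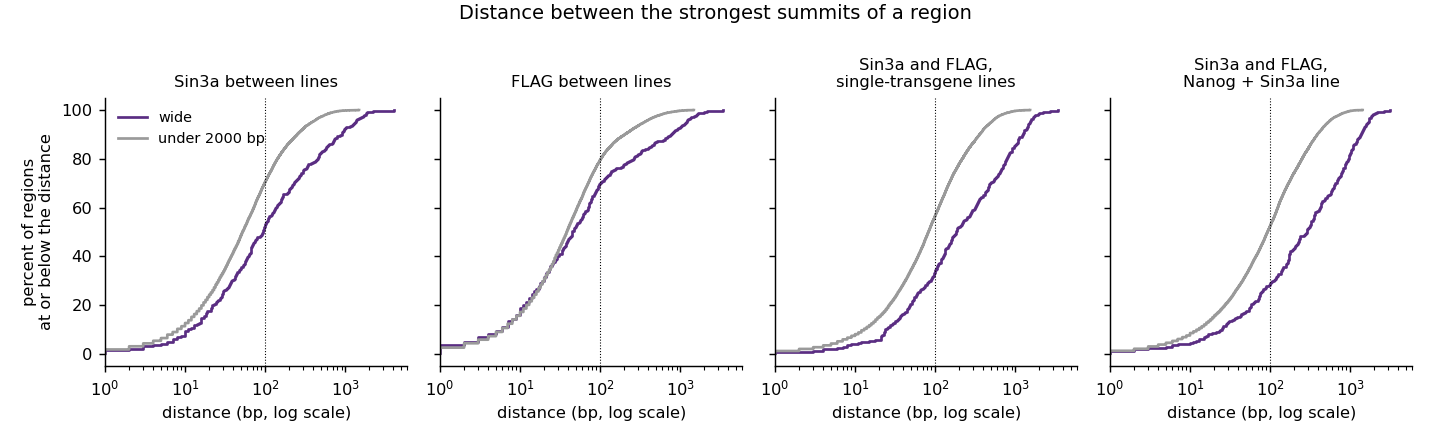
Percent of regions at or below a given distance in bp (log axis) between the strongest summits of a pair of lists, for wide (purple) and narrow (grey) regions; the dotted line marks 100 bp. The FLAG curve rises first, with 70.0% of wide regions within 100 bp, and the curves between proteins rise last, with 33.8% and 29.0%.

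In 84 wide regions (17.5%) the strongest Sin3a and FLAG summits of the combined line were over 1 kb apart, and in 69 (14.4%) this held for the lines with 1 added gene. Between lines the same distance was passed in 36 regions (7.5%) by Sin3a and in 33 (6.88%) by FLAG. The largest shift of Sin3a was 4024 bp, in chr11:86391282-86397094, where its peaks were low and of similar height. The Sin3a summit was nearer the centre of the region than the FLAG summit in 240 regions (50%, 45.5 to 54.5) for the lines with 1 added gene and in 254 (52.9%, 48.4 to 57.3) in the combined line. In narrow regions the shares were 56.3% and 54.6%.

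To ask whether adding the partner gene went with a change at wide regions, the fold of the strongest peak in the combined line was divided by that in the line with 1 added gene. This ratio was not used to choose the regions. For Sin3a its median was 0.996 (0.967 to 1.02) over wide regions and 0.994 over narrow ones. For FLAG it was 0.869 (0.846 to 0.884) over wide regions and 0.860 over narrow ones, and 0.911 over all 27050 regions with a peak in both FLAG lists. Wide regions thus moved as the other regions of all 4 lists did. Ratios are of single lists per line, so a difference in the lines and a difference in the library pools cannot be told apart.

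Counting wide regions past 1.5-fold, Sin3a was higher in the combined line in 20 (4.17%, 2.71 to 6.35), against 3.51% of all regions with a peak in both Sin3a lists, and higher in the Sin3a line in 14 (2.92%, 1.75 to 4.84), against 3.68%. FLAG was higher in the combined line in 5 (1.04%, 0.446 to 2.42), against 5.26% of all regions with both FLAG lists, and higher in the Nanog line in 36 (7.5%, 5.47 to 10.2), against 8.28%. The FLAG background includes regions without Sin3a peaks. Narrow regions gave 1.18% and 10.0% for FLAG in the same order. With each ratio divided by its median over all regions with both lists, the FLAG counts became 12 and 15, against 8.04% and 3.79% of all, and the Sin3a counts 21 and 14, against 3.62% and 3.60%. The excess of FLAG calls in the Nanog line thus depended on this scaling. For Sin3a the median over all regions with both lists was 0.997, so dividing by it could hardly change the counts.

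Not all of these ratios compare the same site, since the strongest peak of a region can differ between lines. Of the ratios past 1.5-fold, summits lay within 200 bp in 14 of the 20 and 5 of the 14 for Sin3a, and in 3 of the 5 and 22 of the 36 for FLAG. Many also came with a different expected background. The background differed by over 10% between the lines in 11 of the 20 and 11 of the 14 regions past 1.5-fold for Sin3a, and in 1 of the 5 and 20 of the 36 for FLAG. Taking scaled fragments alone, the 4 counts were 10, 6, 5 and 20. The lowest FLAG ratio, 0.403 at chr3:95621880-95624127, came from folds of 10.3 (Nanog line) and 4.15 (combined line) at different peaks, with summits 1159 bp apart and backgrounds of 1.09 and 2.73 times the lowest of each list. Near the combined-line summit the Nanog line had another peak, with a fold of 6.15 on 91 fragments, against 78 in the combined line, and a background of 2.56. The lowest Sin3a ratio, 0.468 at chr10:98725437-98728336, came from folds of 9.11 and 4.27 with summits 202 bp apart. The scaled fragment ratio there was 0.774, and the background stood at 1.0 and 1.78 times the lowest of each list.

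The highest FLAG ratio was at chr2:169977597-169980218. FLAG was 13.6 (Nanog line) and 28.8 (combined line), on 93 fragments (75.1 to 114) and 235 fragments (206 to 267), with summits 5 bp apart. The ratio of folds was 2.12 and that of scaled fragments 2.09. Sin3a was weak at this region, with folds of 2.25 (Sin3a line) and 4.25 (combined line) on 34 and 32 fragments, and only 9 bases lay under all 4 lists. The Sin3a summits compared lay 990 bp apart, with backgrounds of 1.85 and 1.0 times the lowest of each list and a scaled fragment ratio of 1.1. The second highest FLAG ratio was 1.74 at chr6:51417594-51420529, where the scaled fragment ratio was 1.65 and the summits lay 399 bp apart.

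**Figure D5:**
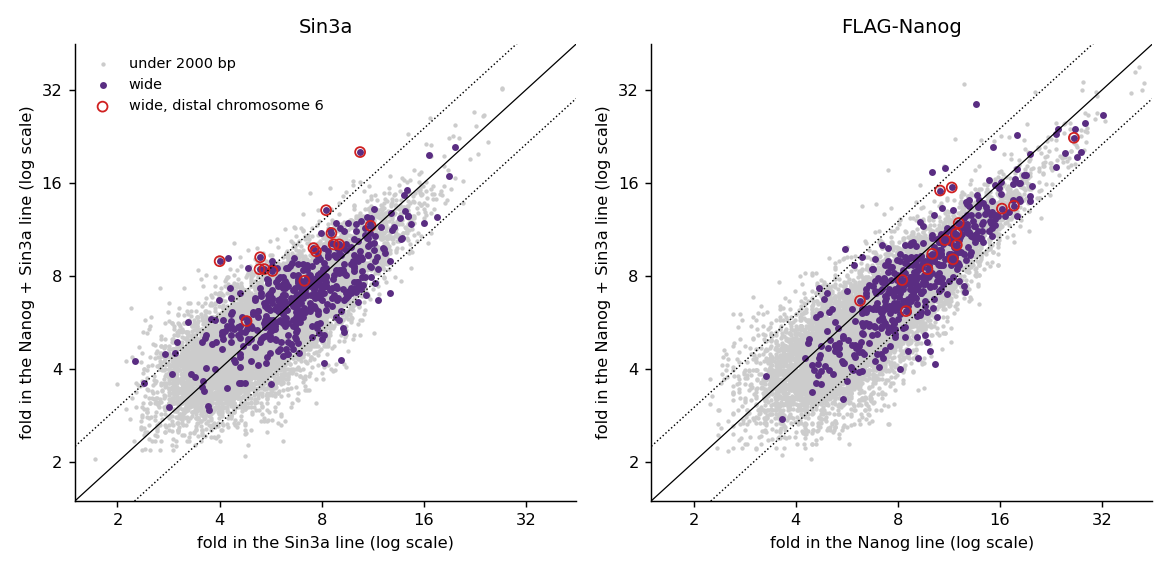
Fold enrichment in the combined line against the line with 1 added gene, for Sin3a (left) and FLAG (right), on log axes, with narrow regions in grey and wide ones in purple; the solid line marks equal folds, dotted lines 1.5-fold, and red circles the 15 wide regions of chromosome 6 between 120 and 130 Mb. Most wide regions lie inside the dotted lines, and all 15 circles lie above the solid line for Sin3a.

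A stretch of chromosome 6 between 120 and 130 Mb, picked out with earlier results of these data known, was rich in wide regions and in higher Sin3a ratios. It held 15 wide regions, 13.3% of its 113 regions of all 4 lists, against 3.99% elsewhere. The Sin3a ratio was above 1 in all 15, from 1.04 to 2.23 with a median of 1.30, and 6 were past 1.5-fold. Elsewhere 48.0% of wide regions were above 1, with a median of 0.984. The narrow regions of the stretch had a Sin3a median of 1.19, with 75 of 98 above 1. By scaled fragments alone the wide regions there had a Sin3a median of 1.25, with all 15 above 1. FLAG in the same 15 regions had a median of 0.922, with 3 above 1, close to its 0.868 elsewhere.

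Within this stretch, 5 wide regions lay between 128149588 and 128388976. Sin3a in the Sin3a line and the combined line was 7.69 and 9.61 at chr6:128149588-128151888, and 5.24 and 8.41 at chr6:128245618-128247936. It was 4.0 and 8.93 at chr6:128248069-128251875, the highest Sin3a ratio of any wide region (2.23), on 90 and 126 fragments. There the background stood at 2.77 and 1.98 times the lowest of the list, and the ratio of scaled fragments was 1.63. The remaining 2 were 5.27 and 9.20 at chr6:128311257-128315480, and 5.42 and 8.42 at chr6:128386895-128388976. Sin3a was thus higher in the combined line in all 5, while the FLAG ratio ran from 0.729 to 1.42. Over the 15 wide regions of the stretch the Sin3a background had medians of 1.11 (Sin3a line) and 1.08 (combined line) times the lowest of its list, and its part in the ratios was not tested.

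Wide regions were spread unevenly over the chromosomes, and some lay near each other. Chromosome 11 held the most (58), and chromosomes 10 and 3 the largest shares of their regions of all 4 lists (6.45% and 6.12%). Chromosome 2 had 22 (2.36% of its regions of all 4 lists). Chromosome X held 1, which is 0.208% (0.0368 to 1.17) of the wide regions, whereas it held 1.12% (0.939 to 1.33) of the narrow ones; these intervals overlap. That region, chrX:17738972-17741030, was 2059 bp wide with Sin3a folds of 4.20 and 5.52 and FLAG folds of 7.81 and 5.63. Another wide region lay within 10 kb of 51 wide regions (10.6%) and of 3.31% of narrow ones, and within 100 kb of 126 (26.2%) and 15.1%. The median gap to the nearest other wide region was 578919 bp from wide regions and 901260 bp from narrow ones. Merged regions of any kind were also denser around wide regions, with a mean of 3.0 others within 10 kb against 2.02. The part of this crowding was not tested. Wide regions grouped with gaps of at most 100 kb formed 50 groups of 2 or more. The largest groups held 5, on chromosome 6 as above and on chromosome 11 between 68853412 and 68939665.

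At the width threshold the regions were alike on either side. Just inside were chr11:118150045-118152044 and chr9:102619285-102621284, each of 2000 bp, and chr3:40885862-40887863 of 2002 bp. Their Sin3a folds ran from 5.56 to 12.7 and their FLAG folds from 4.87 to 11. Just outside were chr3:116126350-116128348 of 1999 bp, and chr4:132796203-132798199 and chr8:82162567-82164563 of 1997 bp each. Their Sin3a folds ran from 6.37 to 8.89 and their FLAG folds from 6.52 to 9.94.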

How the data were processed

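ChIP-seq of 10 samples of pre-iPSCs (8 ChIP samples, 1 input and 1 IgG) gave 4 deposited peak lists, 1 for each group of 2 replicates. Input and IgG were not used here. Neither the peak caller and its settings nor any pooling of replicates is given in the sources used here. Per the submitters' processing notes, Bowtie 1.0.0, SAMtools 0.1.19 and FastQC 0.10.1 were used with build mm9. The authors deposited for each peak a score, which is 10 times the −log10 q without decimals as the values show. The fold that the authors deposited is the ratio of signal to background at the summit, the deposited −log10 p and −log10 q values belong to the peak, and the deposited summit offset is in bp. These are the authors' own values and were used to describe and rank peaks. Ratios between lines compare lists scaled separately.

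Peaks were merged with Python 3.11.15, NumPy 2.4.6, pandas 2.3.3 and SciPy 1.17.1, and drawn with Matplotlib 3.10.9. The strongest peak of a list in a region is the one with the highest −log10 q. The number of fragments over a summit was recovered from fold and −log10 p, with exactly 1 solution for 99.5% to 99.65% of the peaks of each list. Peaks drawn with known numbers gave 1 solution for 99.1%, and these solutions equalled the number drawn in 100% of cases. They were drawn with the same formula that was then solved. This checks the solving, and cannot show that the formula holds for the deposited lists. Read totals were not available, so depth is known only from these fragments and from a recovered ratio of ChIP to control reads. For Sin3a this ratio was 1.43 (Sin3a line) and 1.3 (combined line). For FLAG it was 1.15 (Nanog line) and 1.37 (combined line). The part of this difference in the fold ratios between lines was not tested. Shares have Wilson intervals, medians intervals from binomial order statistics, and fragments exact Poisson intervals. Lists hold no replicate values, so no p-value was computed.

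Regions were named by rule: the 6 with the highest mean −log10 q, the 4 widest, the 3 with most peaks, the 3 with the largest rank difference between proteins each way, the 2 highest and 2 lowest ratios for each antibody, and the 3 nearest the threshold on either side. Not all are printed. Other regions were named after their values were seen, as were the stretch of chromosome 6 and the groups. The members and lists were chosen with earlier results of these data known. The planned assignment of genes and sequences was not run, since no mm9 annotation or genome was used here. Coordinates are 1-based.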

Additional observations from a re-analysis of the deposited data

How the results depend on the processing

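No paired analysis was possible because the replicates of a group are not separated in its list, and no replicate could be left out. Of the recomputed values, 101 stayed within their interval or, for counts, within 1.5 times, and 51 moved further. The order of the Sin3a counts, 20 higher and 14 lower in the combined line, turned at a −log10 q of 10 (7 and 11), at 3000 bp (2 and 3) and with a single broad peak (11 and 12), and the median Sin3a ratio of 0.996 became 1.01 at 3000 bp. Taking the highest fold in place of the highest −log10 q moved none of the results. Widths of 1500 bp and 3000 bp gave 1602 and 55 wide regions (13.6% and 0.468% of regions of all 4 lists), and a single peak of 2000 bp or more gave 280 (2.38%), by construction. Peaks with a −log10 q of at least 5 or 10 gave shares of 4.70% and 6.63%, and a 50% overlap 3.52%. Regions with 1 peak in each list made up 17.6% and 42.5% at those −log10 q limits, 22% and 0% at 1500 and 3000 bp, and 11.4% with a single broad peak. The share on chromosome X was 0% at a −log10 q of 10, at 3000 bp and with a single broad peak.

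Median folds at a −log10 q of 10 were 7.58 and 7.33 for Sin3a and 9.81 and 8.68 for FLAG, the line with 1 added gene first. At 1500 bp they were 6.75 for Sin3a in the combined line and 8.42 and 7.28 for FLAG, and at 3000 bp 7.31, 11.3 and 9.56. With a single broad peak FLAG in the Nanog line was 9.81. Summit distances moved to 210 bp between proteins in the combined line at 1500 bp, and at 3000 bp to 309 bp for the lines with 1 added gene and 128 bp for Sin3a between lines. The median FLAG ratio was 0.888 at 3000 bp and 0.954 after division by its median over all regions.

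Counts past 1.5-fold, for Sin3a higher and lower in the combined line and FLAG higher and lower there, were 56, 43, 15 and 124 at 1500 bp and 2, 3, 0 and 1 at 3000 bp. FLAG higher fell to 2 at a −log10 q of 10 and to 3 with a single broad peak. FLAG higher was 3 at a 50% overlap. Division by the median gave 12 FLAG regions higher and 15 lower. By scaled fragments, an alternative added after seeing the data, the counts were 10 and 6 for Sin3a and 20 for FLAG lower. Leaving out chromosome 6 from 120 to 130 Mb, also added then, left 14 Sin3a regions higher and 14 lower. Apart from the widths, the cause was not tested. Depth limits single regions: a summit with 34 fragments has an interval of 23.6 to 47.5.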

Other observations

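Of 490 merged regions of 2 kb or more, 480 held a peak of all 4 lists (98%, 96.3 to 98.9). Among all 45707 merged regions, 11761 did so. Joining peaks of more lists makes a region wider, so the high share follows in part from the merging. Of the 10 regions of 2 kb or more that lacked a peak of at least 1 list, 2 held FLAG peaks alone. These were chr19:55617016-55619018, with FLAG folds of 9.64 (Nanog line) and 12.9 (combined line), and chr6:108480765-108483203, with 6.67 and 6.65. The highest FLAG folds among the 10 were 17.1 and 15.7 at chr8:26027765-26030410, which had no Sin3a peak in the Sin3a line. At chr11:94852788-94854916 Sin3a was high (12.1 (Sin3a line) and 10.9 (combined line)), while FLAG gave 4.59 in the Nanog line and no peak in the combined line.

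The expected background was higher on the distal part of chromosome 1, in wide and narrow regions alike. From 120 Mb on, 18 wide regions had a median background of 1.51 times the lowest of the list (1.46 in 341 narrow regions). Before 120 Mb the medians were 1.08 in 12 wide regions and 1.03 in narrow ones, and on all other chromosomes 1.06 and 1.03. Chromosome 10 had the lowest median Sin3a ratio between lines of any chromosome, 0.880 over 39 wide and 0.914 over 566 narrow regions. Between 50 and 56 Mb of chromosome 6 the FLAG ratio was above 1 in all 3 wide regions, with a median of 1.23, and had a median of 1.43 in 28 narrow regions. Over all wide and all narrow regions the FLAG medians were 0.869 and 0.860. The Sin3a ratio of this segment had a median of 1.01 in the 3 wide regions, with 2 above 1. In the 28 narrow regions its median was 1.27, with 23 above 1.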
